A study of Mus musculus with 88 samples.

Results

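The 10 genes described here are read as markers of the steps from oligodendrocyte (OLG) progenitor cell (OPC) to newly formed OLG, and were followed across brain regions, mouse strains and responses to chronic social defeat stress (CSDS). They were chosen by name, 4 for the OPC stage (Pdgfra, Cspg4, Vcan and C1ql1) and 6 for committed and newly formed OLGs (Gpr17, Bmp4, Neu4, Enpp6, Bcas1 and Itpr2), and were found through their Ensembl identifiers on the GRCm38 annotation. All 10 passed the filter on low values in every region. The genes tested numbered 18946 for the medial prefrontal cortex (mPFC), 17515 for the bed nucleus of the stria terminalis (BNST) and 19559 for the ventral hippocampus (vHPC).

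OPCs divide and stay in the adult brain, where they depend on platelet-derived growth factor (PDGF), which signals through the receptor that Pdgfra encodes. When an OPC leaves the cell cycle it first becomes a committed precursor that makes the receptor Gpr17 and the signal Bmp4, then a newly formed, premyelinating OLG that makes Enpp6 and Bcas1, and at last a myelinating cell with Mbp, Mog and Mobp. Because new OLGs pass quickly through the middle steps, genes of these steps are used as a readout of ongoing OLG formation.

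RNA-seq was done on 88 libraries from 81 male mice of 8 weeks, of which 7 were read in both the mPFC and the vHPC. Defeated mice met an aggressive CD1 mouse every day and lived beside it behind a perforated wall, and control mice were housed with another control mouse without physical contact. Defeated mice that avoided an unfamiliar CD1 mouse, relative to controls of their strain, were called susceptible and the others resilient. Brains were collected between 6 and 8 d after the last defeat. The strains were labelled C57BL/6Crl (B6) and DBA/2Crl (D2), which the paper names C57BL/6NCrl and DBA/2NCrl. Both are inbred and without any transgene. For B6, the numbers of control, resilient and susceptible mice were 6, 6 and 6 in the mPFC, 5, 5 and 5 in the BNST and 6, 8 and 3 in the vHPC. For D2, there were 6 controls and 8 susceptible mice in the mPFC, 5 controls with 3 resilient and 5 susceptible mice in the BNST, and 6 controls and 5 susceptible mice in the vHPC. Each library is whole dissected tissue, so fewer cells of a stage and less RNA per cell cannot be told apart in any value below.

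BNST libraries held between 11825757 and 25793910 counted reads (median 15273698). The tables held log2 CPM (read counts scaled to library size) already adjusted by the authors for the mPFC and vHPC. For the BNST they held read counts, which were scaled to log2 CPM by the trimmed mean of M values (TMM). The paper lists the number of analyzed reads of each library, but depth was not compared between mPFC or vHPC groups here. The tables were normalized separately, so no test was made across regions. In the BNST, 2 libraries stood apart from the mean library, D2 control replicate 2 (correlation 0.893) and B6 susceptible replicate 3 (0.936). In the mPFC, 5 of the 6 susceptible B6 mice but 1 control and no resilient mouse carried identifiers that begin with C7. In the vHPC, no library preparation set held both B6 controls and defeated B6 mice, or both B6 and D2 controls. Whether strain or phenotype was protected when the authors removed set differences is not given in the sources used here. If it was not, vHPC differences between groups in separate sets were altered before deposit. In either case the main fits held no term for sets, so their p leave out the uncertainty of that removal. The vHPC adjusted p below may therefore be too small, which was not tested. Values without those libraries or within those sets stand beside the results they touch.

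The genes lie on 10 chromosomes. By the annotation of the build GRCm38, Pdgfra spans chromosome 5 from 75152292 to 75198215 on the plus strand, Vcan chromosome 13 from 89655312 to 89742509 on the minus strand, Enpp6 chromosome 8 from 46986887 to 47096762 on the plus strand and Bcas1 chromosome 2 from 170346991 to 170427845 on the minus strand. All are protein coding, and reads were counted over their exons. Gpr17 lies wholly inside Lims2 on the other strand over 6640 bases, and C1ql1 inside the noncoding Gm26668 over 7425 bases. Enpp6 overlaps the antisense genes Gm45600 and 4930579M01Rik, and Bcas1 overlaps Bcas1os1 and Bcas1os2. Whether counting used the strand is not given in the sources used here, so reads of such partners may be part of a member's value.

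The stretch before the transcription start is shown for 1 gene of each stage, the OPC receptor Pdgfra and the premyelinating enzyme Enpp6, because in the mPFC the first held a nearly even level in all groups and the second did not. RefSeq promoters on GRCm38.p6 were at hand for 7 members (Pdgfra, Cspg4, Vcan, Bmp4, Neu4, Enpp6 and Itpr2). Capitals mark CATCTG, which is the reverse complement of the E-box CAGATG that OLIG proteins can bind, in Pdgfra at chr5:75152001-75152250, and the letters ACAAT, the core of SOX sites, in Enpp6 at chr8:46986637-46986886, both on the plus strand and 5′ to 3′.
Pdgfra: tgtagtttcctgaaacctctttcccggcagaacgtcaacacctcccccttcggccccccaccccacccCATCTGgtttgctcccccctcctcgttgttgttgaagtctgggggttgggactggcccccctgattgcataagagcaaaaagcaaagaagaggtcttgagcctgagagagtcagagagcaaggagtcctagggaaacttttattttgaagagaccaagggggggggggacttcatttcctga
Enpp6: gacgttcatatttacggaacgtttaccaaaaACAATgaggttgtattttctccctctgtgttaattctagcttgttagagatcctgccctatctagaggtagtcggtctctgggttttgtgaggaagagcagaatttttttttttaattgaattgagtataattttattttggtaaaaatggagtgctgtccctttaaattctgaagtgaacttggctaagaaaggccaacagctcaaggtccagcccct

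The E-box of Pdgfra began 182 bases before the start and the ACAAT of Enpp6 219 bases before it. Cspg4 and Neu4 also held ACAAT, at 250 and 84 bases. Both strands were searched for 5 motifs in the 250 bases before the start. Of 32851 promoters, 27.7% held the SOX core ACAAT and 16.5% the longer SOX core ACAAAG. The E-box CAGCTG was in 13.0% and the E-box CAGATG in 14.4%, while the MYRF core CTGGCAC was in 4.2%. The Vcan, Bmp4 and Itpr2 windows held none of the 5. The share of G and C was 38.4% in the Enpp6 window and 54.4% in the Pdgfra window.

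Genes of both stages were read in every region. Pdgfra, the defining OPC receptor, lay above 86.2% of all mPFC genes, 76.9% of BNST genes and 86.3% of vHPC genes. To compare genes, levels were divided by exon length and are log2 CPM per kb. In B6 controls Bcas1, a protein of premyelinating and myelinating OLGs, was highest among the members, at 5.27 for mPFC, 5.88 for BNST and 3.39 for vHPC. Gpr17 followed at 3.43, 3.55 and 3.38, in the same order of regions, and Pdgfra was at 3.28, 2.2 and 3.24. In the BNST C1ql1 lay between them. Bmp4, a secreted signal made at commitment, was lowest in the mPFC (-0.10) and vHPC (-0.09). In the vHPC these levels of Bcas1, Gpr17 and Pdgfra differed by no more than the SD of Bcas1 between B6 controls (0.16), so their order there was not resolved. In the BNST the lowest read count of any member was 12, for Bmp4, and Bcas1 held between 1593 and 10993 reads per library.

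**Figure D1:**
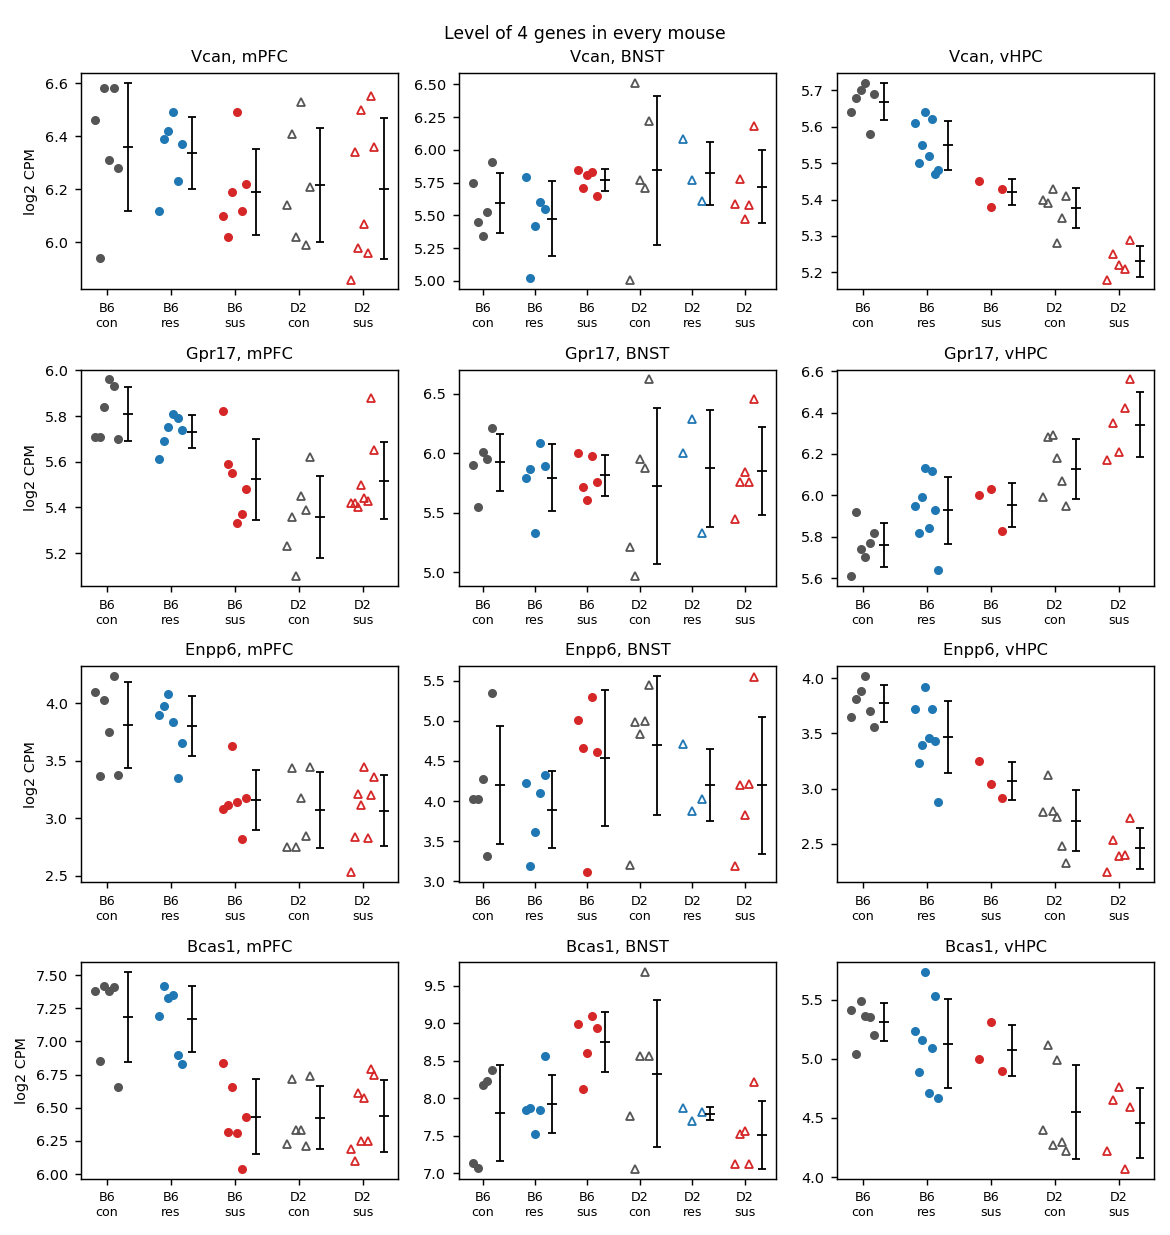
Levels of Vcan, Gpr17, Enpp6 and Bcas1 in each mouse, in log2 CPM on the vertical axis, by region, with B6 mice as circles and D2 mice as open triangles, controls in grey, resilient mice in blue and susceptible mice in red, and bars at the mean ± SD of each group. In the mPFC 5 of 6 susceptible B6 mice lie below all B6 controls for Enpp6.

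In the mPFC of B6 mice, Enpp6 and Bcas1 were lower in susceptible mice than in controls. The other committed genes and the 4 OPC genes were not called. Bcas1 is also made by myelinating OLGs and followed myelin genes across mPFC mice (r = 0.95). Its fall therefore does not stand for newly formed OLGs alone. Enpp6, a choline-specific phosphodiesterase, ranged from 3.37 to 4.24 log2 CPM (median 3.89) in controls, from 3.35 to 4.08 (median 3.87) in resilient mice and from 2.82 to 3.63 (median 3.13) in susceptible mice. Of the 6 susceptible mice, 5 lay below every control and 5 below every resilient mouse, so the groups overlapped by 1 mouse. The log2 difference from controls was -0.65 (95% interval -1.01 to -0.30, limma adjusted p = 0.0448), a change of -36.4%, and that from resilient mice was -0.65 (-1.0 to -0.29, adjusted p = 0.0483).

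Bcas1 ranged from 6.66 to 7.42 log2 CPM (median 7.38) in B6 controls, from 6.83 to 7.42 (median 7.26) in resilient and from 6.04 to 6.84 (median 6.37) in susceptible mice. All 6 susceptible mice lay below the control median, and 4 of them below every control. The log2 difference was -0.75 against controls (-1.07 to -0.43, limma adjusted p = 0.016) and -0.74 against resilient mice (-1.06 to -0.42, adjusted p = 0.0304). Thus 2 of the 10 genes were called in each of these comparisons, where 2.22% and 2.02% of all genes were called. Susceptible mice are part of both comparisons, which are not independent.

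Gpr17, a receptor of the committed precursor whose level declines before myelination, differed by less than these. It lies on chromosome 18 of GRCm38 from 31942997 to 31949636, on the minus strand. It ranged from 5.7 to 5.96 log2 CPM (median 5.78) in B6 controls and from 5.33 to 5.82 (median 5.51) in susceptible mice, of which 5 of 6 lay below every control. The log2 difference of -0.29 (-0.46 to -0.11) missed the threshold at an adjusted p of 0.069. Itpr2, an intracellular calcium channel, held a median of 6.25 in controls and 6.19 in susceptible mice, and its log2 difference was -0.02 (-0.10 to 0.07). Neu4, a sialidase, differed by -0.05 (-0.25 to 0.16) and Bmp4 by 0.11 (-0.23 to 0.45).

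Among the OPC genes, Pdgfra ranged from 6.47 to 6.66 log2 CPM (median 6.63) in B6 controls and from 6.42 to 6.67 (median 6.56) in susceptible mice. The groups overlapped over nearly their whole range, and the interval of the log2 difference, -0.14 to 0.02, did not hold the fall of Enpp6 or Bcas1. Cspg4, the NG2 proteoglycan, differed by -0.01 (-0.15 to 0.12), and Vcan, the matrix proteoglycan versican, by -0.17 (-0.42 to 0.08). C1ql1, a secreted C1q-like protein, was the least precise at -0.43 (-0.96 to 0.11). The difference between the change of 1 gene and that of another was not tested.

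In resilient B6 mice 0 of the 10 genes and 0.0% of all mPFC genes were called against controls by limma, and 1 member and 731 genes (3.86%) had an unadjusted p under 0.05. The differences of Enpp6 and Bcas1 were both -0.01, with intervals from -0.36 to 0.35 and from -0.33 to 0.31. The member with the unadjusted p was Bmp4, whose log2 difference was -0.35 (-0.69 to 0). Between susceptible and resilient mice Bmp4 differed by 0.46 (0.11 to 0.80), at a limma adjusted p of 0.13, and 5 of 6 susceptible mice lay above every resilient mouse. Its level was low, from 0.30 to 1.68 log2 CPM in susceptible and from 0.34 to 1.03 in resilient mice. Across mPFC mice, with group means removed, its r was 0.52 with 5 fibroblast genes and 0.02 with the other committed members.

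Beside Enpp6 and Bcas1, the mPFC of susceptible B6 mice held lower myelin genes, and the calls changed with how mice were grouped. Of 14 myelin genes such as Mbp and Mog, 11 fell in susceptible B6 mice (median log2 difference -0.73, against 0.00 over all genes), among them Opalin (-0.97), Mobp (-0.89) and Mal (-0.85). Of 11 other OPC genes and 13 other committed-stage genes, 0 were called by limma, with 2 and 4 at an unadjusted p under 0.05 and medians of 0.00 and -0.11. Summed CPM of 5 striatal genes, which mark tissue next to the mPFC, ranged from 69.9 to 211 in B6 controls and from 54.6 to 109 in susceptible mice, and that of 5 olfactory genes from 6.26 to 89.2 and from 5.00 to 182. With both levels as covariates the log2 differences were -0.44 for Enpp6 (adjusted p = 0.279) and -0.47 for Bcas1 (adjusted p = 0.105). Summed CPM of 5 mural genes was also lower in susceptible mice, from 201 to 213 against 222 to 237, without overlap. The part of neighbouring tissue and other cells in the result was not tested further.

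Against controls, neither call held when the identifier prefix was a covariate, at -0.28 for Enpp6 and -0.20 for Bcas1. Without C7 mice 1 susceptible mouse was left, assumed to vary like the others, and the log2 differences were -0.82 for Enpp6 and -0.45 for Bcas1 (limma adjusted p = 0.831 for both). Among C7 mice the mean of the 5 susceptible mice lay below the 1 control by log2 differences of -0.21 for Enpp6 and -0.31 for Bcas1, and that control measured 3.38 and 6.66 log2 CPM. Prefix and phenotype cannot be told apart for most of these mice. With the library set as a covariate the differences were -0.65 (adjusted p = 0.106) and -0.75 (adjusted p = 0.0647). Within each of the 4 library preparation sets the mean of susceptible mice was below that of controls for both genes, at -0.72 to -0.55 for Enpp6 and -1.07 to -0.45 for Bcas1. Leaving out 1 mouse at a time kept Enpp6 past the threshold in 4 of 12 limma fits (adjusted p up to 0.117, lost without any of B6 control 1, 3, 4 or 5 or B6 susceptible 1, 2, 5 or 6) and Bcas1 in 10 of 12 (up to 0.06, lost without B6 control 3 or B6 susceptible 5). Against resilient mice Enpp6 was lost without B6 resilient 1, 2, 3, 4 or 6 or B6 susceptible 2, 4, 5 or 6 (up to 0.131), and Bcas1 without B6 resilient 2, 3 or 4 or B6 susceptible 2, 5 or 6 (up to 0.0866).

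In D2 mice 0 members were called between susceptible mice and controls, as were 0.0% of all mPFC genes by limma, and no member and 734 genes (3.87%) had an unadjusted p under 0.05. Bcas1 ranged from 6.21 to 6.74 log2 CPM (median 6.33) in D2 controls and from 6.10 to 6.79 (median 6.41) in susceptible D2 mice, a log2 difference of 0.01 (-0.29 to 0.31). The interval does not hold the B6 estimate. Enpp6 had medians of 3.01 and 3.16, with an interval of -0.33 to 0.33, and Gpr17 differed by 0.16 (0 to 0.32). The strain difference in the change, tested as an interaction, was 0.76 for Bcas1 (0.33 to 1.2, adjusted p = 0.431), 0.65 for Enpp6 (0.16 to 1.1, adjusted p = 0.445) and 0.45 for Gpr17 (0.21 to 0.69, adjusted p = 0.394). So 0 members were called there by limma, among 0.0% of all genes, and these 3 members and 1766 genes (9.32%) had an unadjusted p under 0.05.

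**Figure D2:**
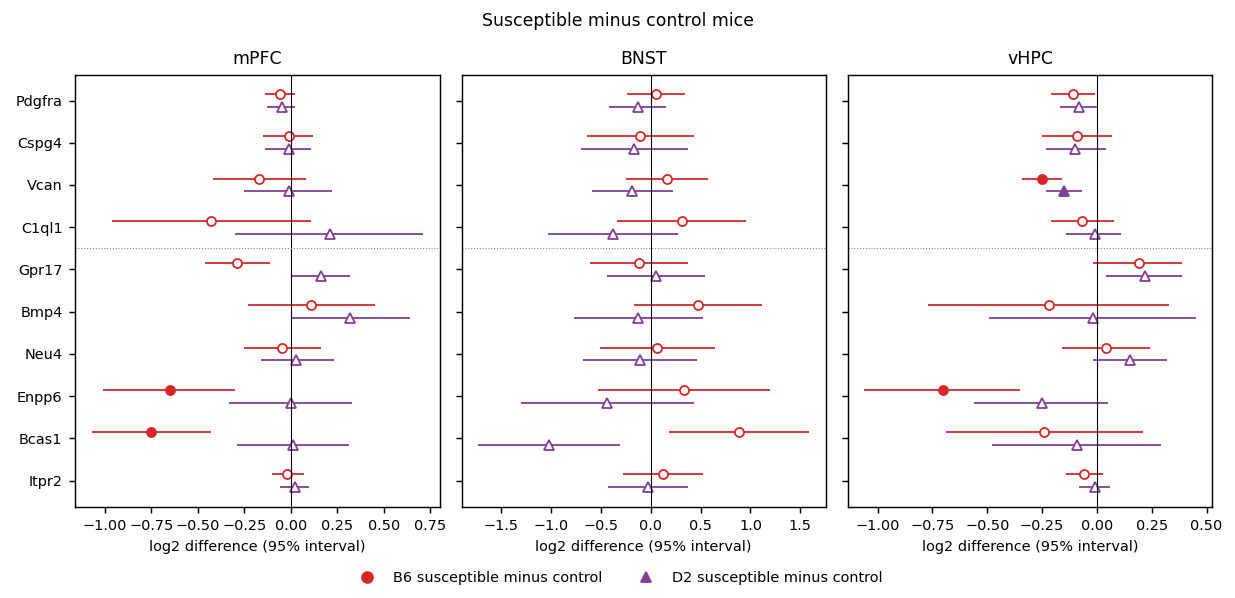
Log2 differences of susceptible mice from controls of their strain for each gene, with 95% intervals, by region. The horizontal axis is the log2 difference and filled markers have an adjusted p under 0.05. In the mPFC the filled markers are Enpp6 (-0.65) and Bcas1 (-0.75) in susceptible B6 mice, and in the vHPC they are Vcan and Enpp6.

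In the BNST, no member was called in any of 8 comparisons by edgeR, and Bcas1 differed most, with a higher mean in susceptible than in control B6 mice and a lower one in susceptible than in control D2 mice. In B6 controls it measured 7.1, 7.07, 8.18, 8.23 and 8.38 log2 CPM, in resilient mice 7.85, 7.87, 7.52, 7.84 and 8.57, and in susceptible mice 8.99, 8.12, 8.61, 9.10 and 8.94. Thus 4 of 5 susceptible mice lay above every control and above every resilient mouse. The log2 difference from controls was 0.89 (0.18 to 1.59), with an edgeR quasi-likelihood adjusted p of 0.692.

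In D2 mice the difference had the other sign, with overlap. Controls measured 7.77, 7.06, 8.56, 9.68 and 8.56 log2 CPM for Bcas1, resilient mice 7.87, 7.7 and 7.82, and susceptible mice 7.12, 7.53, 7.56, 7.12 and 8.22. The control group spanned the whole range of the other mice. The log2 difference of susceptible mice from controls was -1.02 (-1.73 to -0.31, edgeR adjusted p = 0.601) and -0.55 without D2 control replicate 4, and the interaction was -1.91 (-2.91 to -0.91, unadjusted p = 0.000542, adjusted p = 0.107). DESeq2 called it (-1.92, DESeq2 adjusted p = 0.0135), and edgeR did so without the 2 libraries that stood apart (-2.17, adjusted p = 0.0337). Across fits that leave out 1 mouse it ranged from -2.13 to -1.43. In D2 mice the library sets disagreed, at -1.86 in one and 0.09 in the other, while in B6 mice they gave 0.70 and 1.0.

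RNA composition moved with these groups. The share of mitochondrial reads was 21.3% to 31.9% in susceptible and 8.64% to 24.6% in control B6 mice, and 6.72% to 11.9% in susceptible and 11.1% to 30.8% in control D2 mice. Summed CPM of the 14 myelin genes ranged from 5890 to 12200 in susceptible against 3000 to 8600 in control B6 mice, and from 2360 to 7090 against 3800 to 12300 in D2 mice. With the mitochondrial share as a covariate the Bcas1 interaction was -2.17 (edgeR adjusted p = 0.358), and the part of RNA composition was not tested further. Of the myelin genes, 0 of 14 were called by edgeR in either strain, with 3 in B6 and 7 in D2 at an unadjusted p under 0.05.

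The other genes differed less in the BNST. Bmp4 measured 2.5, 2.1, 2.2, 2.62 and 2.58 log2 CPM in susceptible and 1.46, 0.86, 1.85, 1.65 and 2.0 in resilient B6 mice, with no overlap, and the difference of 0.82 (0.17 to 1.47) had an edgeR adjusted p of 0.544. It was called without the 2 libraries that stood apart (0.86, adjusted p = 0.0414). Pdgfra differed by 0.05 (-0.24 to 0.34) in susceptible B6 mice and by -0.13 (-0.42 to 0.15) in susceptible D2 mice, and Gpr17 by -0.12 (-0.61 to 0.37) and 0.05 (-0.44 to 0.54). Enpp6 had wide intervals, from -0.53 to 1.2 and from -1.30 to 0.43. Among all genes 0.0% were called in both strains for susceptible mice against controls and 0.00571% for susceptible against resilient B6 mice. An unadjusted edgeR p under 0.05 was found for 1 member (Bcas1) and 1115 genes (6.37%) in susceptible B6 mice, for 1 (Bcas1) and 1056 (6.03%) in susceptible D2 mice, for 3 (Bmp4, Bcas1 and Itpr2) and 1323 (7.55%) between susceptible and resilient B6 mice, and for 1 (Bcas1) and 2004 (11.4%) in the interaction. In resilient mice against controls, and in susceptible against resilient D2 mice, no member had one, against 328 genes (1.87%) for B6, 953 (5.44%) for D2 and 230 (1.31%). DESeq2 called 0 members in each comparison but the interaction.

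In the vHPC of susceptible B6 mice, Vcan, which was chosen as an OPC gene, and Enpp6 were lower than in controls, and Bcas1 was not called. Vcan ranged from 5.58 to 5.72 log2 CPM (median 5.69) in B6 controls and from 5.47 to 5.64 (median 5.53) in resilient mice, and measured 5.45, 5.38 and 5.43 in the 3 susceptible mice. All 3 lay below every control and every resilient mouse. The log2 difference from controls was -0.25 (-0.34 to -0.16, limma adjusted p = 0.000111) in susceptible mice and -0.12 (-0.19 to -0.05, adjusted p = 0.0199) in resilient mice.

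Enpp6 ranged from 3.56 to 4.02 log2 CPM (median 3.76) in B6 controls and from 2.88 to 3.92 (median 3.45) in resilient mice, and measured 3.25, 3.04 and 2.91 in susceptible mice. The 3 susceptible mice lay below every control but within the range of resilient mice. The log2 difference was -0.70 against controls (-1.06 to -0.35, limma adjusted p = 0.00247) and -0.40 against resilient mice (-0.74 to -0.06, adjusted p = 0.0686). Bcas1 measured 5.00, 5.31 and 4.90 in susceptible mice against a control range of 5.04 to 5.49 and differed by -0.24 (-0.69 to 0.21, adjusted p = 0.398). So 2 of 10 members were called where 40.6% of all genes were, below the background share, and 1 of 10 (Vcan) for resilient mice, where 2120 of 19559 genes (11%) were.

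Vcan was also lower in susceptible D2 mice, at 5.18, 5.25, 5.22, 5.21 and 5.29 log2 CPM against a control range of 5.28 to 5.43 (median 5.4). Of these 5 mice, 4 lay below every control. The log2 difference was -0.15 (-0.23 to -0.07, limma adjusted p = 0.0197), and Vcan was the only member called there, among 4.28% of all genes. Susceptible B6 mice also had lower Vcan than resilient ones, at a log2 difference of -0.13 (-0.22 to -0.04, limma adjusted p = 0.0262), and Vcan was the only member called, where 27.6% of genes were called. Enpp6 in susceptible D2 mice differed by -0.25 (-0.56 to 0.05). The interaction was 0.10 for Vcan (-0.02 to 0.22) and 0.45 for Enpp6 (-0.02 to 0.91), and limma called 0 members there, among 0.782% of all genes, with 0 members and 3600 genes (18.4%) at an unadjusted p under 0.05.

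These calls changed with the way libraries were grouped. The Vcan and Enpp6 differences of susceptible B6 mice remained called among libraries of sequencing set 1 alone, with 2 susceptible mice, at -0.23 and -0.69. That set held 1 resilient B6 mouse and 1 susceptible D2 mouse, whose Vcan differed from controls by -0.03 and -0.11 and could say little about those calls. Vcan was lost in resilient B6 mice without B6 control 3 or 4 (adjusted p up to 0.0514 in limma), in susceptible D2 mice without D2 control 3 or D2 susceptible 1 or 4 (up to 0.0616), and between susceptible and resilient B6 mice without any of the 3 susceptible mice (up to 0.137). With the library set as a covariate no member was called. In susceptible B6 mice the differences were -0.31 for Vcan (limma adjusted p = 0.338) and -1.16 for Enpp6 (limma adjusted p = 0.355). No library set held both B6 controls and defeated B6 mice, so these values compare them only through other groups. Choroid plexus genes summed to between 38.8 and 2110 CPM in B6 controls and to between 24.4 and 80.1 CPM in susceptible B6 mice, and without the 8 libraries over 400 CPM the differences of susceptible B6 mice were -0.26 for Vcan and -0.76 for Enpp6. In resilient B6 mice Vcan was then not called (-0.13, limma adjusted p = 0.0619) and Neu4 was (0.32, adjusted p = 0.0345), and between susceptible and resilient B6 mice Neu4 (-0.27) and Enpp6 (-0.38) were called beside Vcan. Other cell types moved too. In susceptible B6 mice summed CPM ranged from 205 to 221 for 4 endothelial genes (252 to 300 in controls), from 223 to 233 for 5 mural genes (256 to 291), from 1210 to 1230 for 5 astrocyte genes (1390 to 1470), from 191 to 195 for 5 microglial genes (202 to 214) and from 11.4 to 14.9 for 4 ependymal genes (21.5 to 33.4), all without overlap. That of 6 neuronal genes was higher, from 3240 to 3450 against 2730 to 3090. The part of these tissues and cells in the result was not tested further.

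Around the members, the vHPC of susceptible B6 mice held lower myelin genes and a mixed OPC list. All 13 myelin genes in the table fell (median -0.87, against -0.01 over all genes, of which 40.6% were called), among them Mal (-1.30), Mobp (-1.19) and Mag (-0.99). Of 11 other OPC genes, 5 rose and 1 fell, among them Cacng4 (0.65) and Xylt1 (0.59). The count of OPC genes and those of the pathway and committed-stage lists below are not far from the share of all genes called. Olig2, a factor of the whole lineage, rose by 0.34. Of 13 PDGF and BMP pathway genes, 6 fell and 1 rose, led by the receptor Bmpr1b (-0.58) and the BMP target genes Id4 (-0.53) and Id1 (-0.50). The other committed-stage list split, with 2 of 13 higher and 4 lower, among them Nkx2-2 (0.95), Cnksr3 (-0.53) and Kif19a (-0.44).

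Between control strains, Enpp6 and Bcas1 were lower in D2 mice in both mPFC and vHPC. Gpr17 was lower in the mPFC and higher in the vHPC. With the library set as a covariate its vHPC sign turned. No vHPC library set held controls of both strains, so that covariate can say little about the sign. In the mPFC, Bcas1 ranged from 6.66 to 7.42 log2 CPM in B6 and from 6.21 to 6.74 in D2 controls, with 4 of 6 D2 mice below every B6 mouse. Enpp6 ranged from 3.37 to 4.24 and from 2.75 to 3.45, again with 4 of 6 D2 mice below every B6 mouse. Gpr17 ranged from 5.7 to 5.96 and from 5.1 to 5.62, and the groups did not overlap. The log2 differences were -0.76 for Bcas1 (-1.08 to -0.44, limma adjusted p = 0.000454), -0.74 for Enpp6 (-1.10 to -0.39, adjusted p = 0.00173) and -0.45 for Gpr17 (-0.63 to -0.28, adjusted p = 0.000166). These 3 of 10 members were called among 27.8% of all genes. No OPC gene was called, Cspg4 being nearest at -0.16 (adjusted p = 0.0612).

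The 3 mPFC calls of the strain comparison held in all 12 fits that leave out 1 mouse, without C7 mice, with the library set as a covariate, and with the olfactory and striatal levels as covariates. Mean Bcas1 was 6.42 ± 0.24 log2 CPM (SD, n = 6) in D2 controls, 6.44 ± 0.27 (n = 8) in susceptible D2 mice and 6.43 ± 0.28 (n = 6) in susceptible B6 mice, against 7.18 ± 0.34 (n = 6) in B6 controls. Myelin genes were lower in D2 controls in 14 of 14 cases (median -0.85), as was Sox10, a factor that drives OLG differentiation (-1.16). Among the other committed-stage genes 5 of 13 were lower, with Zfp488 (-0.74), Cnksr3 (-0.70) and Kif19a (-0.51) the furthest, and 1 higher. In the PDGF and BMP list 5 of 13 were lower, with Bmpr1b (-0.86), Id2 (-0.65) and Id4 (-0.48) the furthest, and 1 higher. Of all mPFC genes, 27.8% were called in this comparison.

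**Figure D3:**
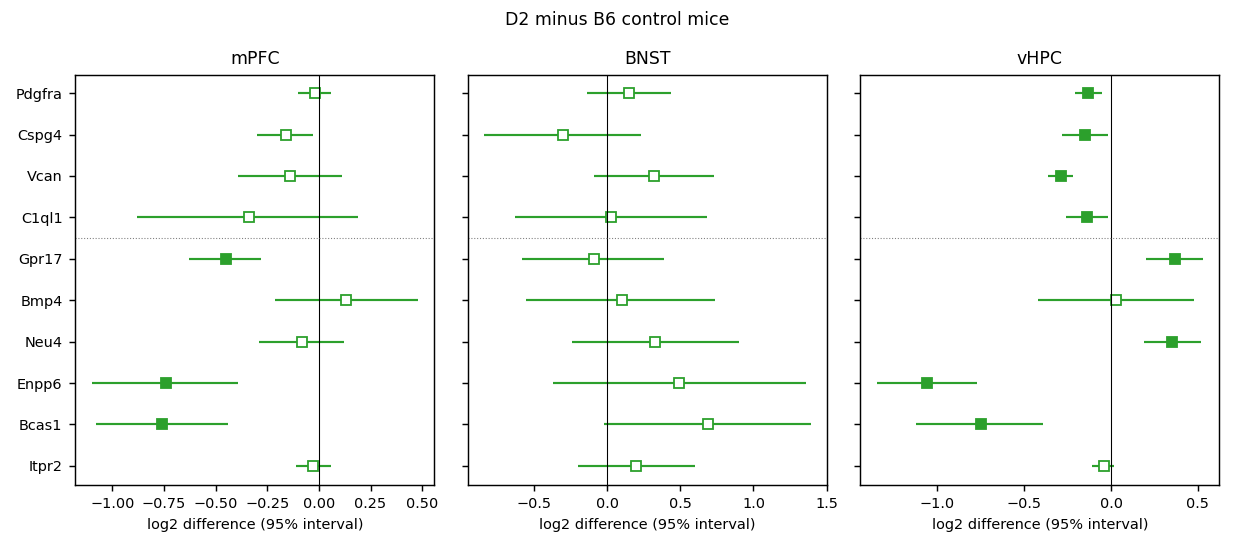
Log2 differences of D2 from B6 controls for each gene with 95% intervals, by region, with OPC genes above and committed genes below the dotted line; filled markers have an adjusted p under 0.05. Gpr17 lies at -0.45 in the mPFC and at 0.37 in the vHPC, while Enpp6 and Bcas1 are below 0 in both.

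In the vHPC, 8 of 10 members were called between control strains, where 59.3% of all genes were. Enpp6 ranged from 3.56 to 4.02 log2 CPM (median 3.76) in B6 and from 2.33 to 3.1 (median 2.76) in D2 controls. Gpr17 went the other way, from 5.61 to 5.92 (median 5.76) in B6 to 5.95 to 6.29 (median 6.13) in D2 controls, and Neu4 did so from 3.43 to 3.68 in B6 to 3.82 to 4.07 in D2 controls. For these 3 genes and for Vcan the strains did not overlap, and the share of all genes without overlap was not counted. The log2 differences were -1.06 for Enpp6 (-1.35 to -0.77, limma adjusted p = 4.79e-07), 0.37 for Gpr17 (0.20 to 0.53, adjusted p = 0.00044), 0.35 for Neu4 (0.19 to 0.52, adjusted p = 0.000568) and -0.75 for Bcas1 (-1.12 to -0.39, adjusted p = 0.000779).

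The 4 OPC genes were lower in D2 vHPC by small amounts. Vcan differed most, from 5.58 to 5.72 log2 CPM in B6 and from 5.28 to 5.43 in D2 controls, a log2 difference of -0.29 (-0.36 to -0.22, limma adjusted p = 1.8e-07). Pdgfra differed by -0.13 (adjusted p = 0.00735), Cspg4 by -0.15 (adjusted p = 0.0422) and C1ql1 by -0.14 (adjusted p = 0.0474). Leaving out 1 mouse kept Cspg4 called in 5 of 12 fits and C1ql1 in 4 of 12. Bmp4 (0.03) and Itpr2 (-0.04) were not called. With the library set as a covariate 0 members were called, Enpp6 being -1.56 (limma adjusted p = 0.064), and Pdgfra and Gpr17 changed sign to 0.01 and -0.11. No library set held controls of both strains, so these values compare them only through other groups. Within sequencing set 1 the 2 strains shared a set and gave -1.07 for Enpp6 and 0.36 for Gpr17.

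Genes of 1 stage did not all differ in 1 direction between the strains. All 13 myelin genes were lower in D2 controls (median -1.28, against 0.01 over all vHPC genes, of which 59.3% were called). Other OPC genes were higher in 8 of 11 cases and lower in 2, among them Lhfpl3 (-0.63) and Xylt1 (0.62), whereas the 4 OPC members were lower. Other committed-stage genes were lower in 7 of 13 cases and higher in 2, and the PDGF and BMP list was lower in 9 of 13 and higher in 2, with Bmpr1b at -1.07. In the BNST no member was called between control strains by edgeR (2.51% of genes were), with intervals of -0.02 to 1.39 for Bcas1 and -0.37 to 1.36 for Enpp6, 0 members at an unadjusted p under 0.05 and 0 by DESeq2, against 2339 genes (13.4%) at an unadjusted p under 0.05 by edgeR.

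The 2 stages were also summed up as the mean log2 CPM of the 6 committed genes minus that of the 4 OPC genes, with no test. In B6 mPFC this gap was -0.16 ± 0.16 in controls, -0.19 ± 0.10 in resilient and -0.27 ± 0.14 in susceptible mice (SD, n = 6 each), and -0.31 ± 0.18 in D2 controls (n = 6). Its change in susceptible B6 mice was -0.11, and -0.15 to -0.07 when 1 mouse was left out. The spread of single mice within groups was 0.16, which is not the error of that change. In the BNST it ran from -0.43 in resilient B6 mice to -0.08 in D2 controls, with a spread of 0.32. In the vHPC it lay between -1.09 and -0.98 in all 5 groups, with a spread of 0.18. Within the committed genes of susceptible B6 mPFC, log2 differences ran from -0.75 (Bcas1) to 0.11 (Bmp4).

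Across mice, Bcas1 and Enpp6 followed the myelin genes and Pdgfra did not. Each value was taken as the deviation from the mean of its group, so that strain and stress do not enter, and compared with the mean deviation of the myelin list. In the mPFC (32 mice), Bcas1 gave a Pearson r of 0.95 and a Spearman rho of 0.92 and Enpp6 0.85 and 0.84 (all with permutation adjusted p = 7.5e-05 over 60 relations, from 1e-05, the smallest that 100000 permutations can give). Gpr17 gave 0.52 for both (permutation adjusted p = 0.01 and 0.012), and Pdgfra 0.26 and 0.08 (0.25 and 0.74). With 5 striatal genes, r was 0.74 for Bcas1, 0.67 for Gpr17, 0.50 for Enpp6 and 0.28 for Pdgfra. Gpr17 also gave 0.60 with 5 microglial genes, so its relation was not particular to myelin genes. Without the 2 mice farthest from the median of the myelin list, r with that list was 0.95 for Bcas1, 0.82 for Enpp6, 0.56 for Gpr17 and 0.12 for Pdgfra. Within the 4 library sets r lay between 0.95 and 0.98 for Bcas1 and between 0.65 and 0.94 for Enpp6.

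In the BNST (28 mice) the same r was 0.83 for Enpp6, 0.78 for Bcas1, 0.84 for Itpr2, 0.77 for Gpr17 and 0.75 for Neu4 (rho 0.80, 0.84, 0.83, 0.82 and 0.74), each with a permutation adjusted p for r of 7.5e-05. Without the 2 farthest mice these were 0.77, 0.75, 0.79, 0.74 and 0.64, and within both library sets r was at least 0.83 for Enpp6 and 0.68 for Bcas1. The relation was not particular to myelin genes, since 5 astrocyte genes gave an r of 0.87 for Enpp6, 0.86 for Itpr2 and 0.80 for Neu4. In the vHPC (28 mice) r was 0.69 for Enpp6 and 0.67 for Bcas1 (rho 0.56 and 0.59, permutation adjusted p for r 0.00036 and 0.00071), 0.53 for Gpr17 and -0.06 for Neu4. Within the 2 sequencing sets it lay between 0.55 and 0.76 for Enpp6 and between 0.41 and 0.89 for Bcas1. Without the 2 farthest mice the vHPC values were 0.53 and 0.48 for Enpp6 and Bcas1, and Itpr2 fell from 0.52 to 0.17, so its relation rested on those mice. Pdgfra stayed at 0.30 in the BNST and 0.15 in the vHPC, with permutation adjusted p of 0.24 and 0.57. The genes of a mouse share 1 library, so its depth and dissection enter every pair.

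**Figure D4:**
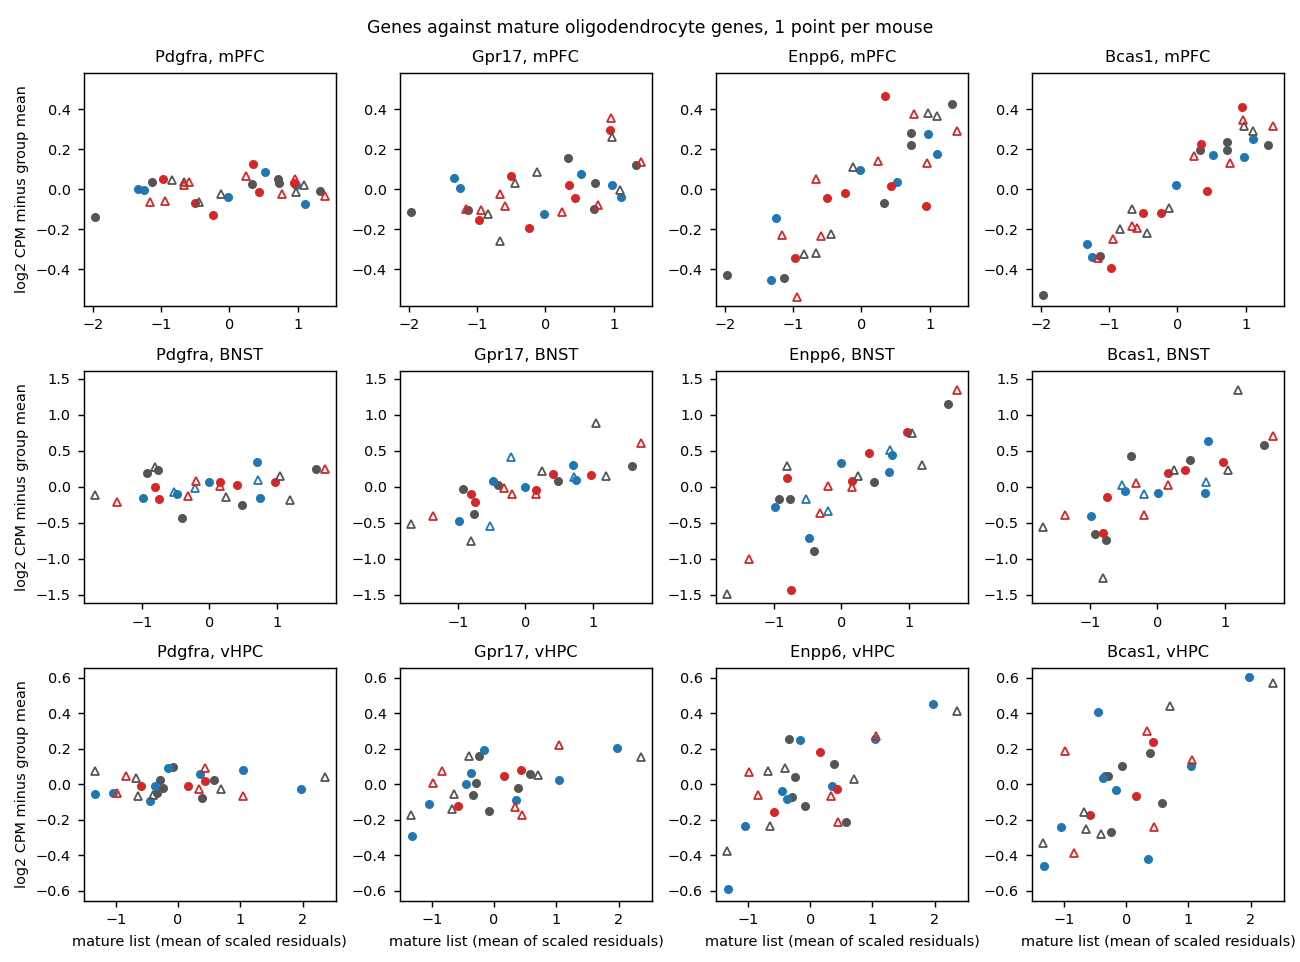
Deviation of Pdgfra, Gpr17, Enpp6 and Bcas1 from the group mean against the mean scaled deviation of the myelin genes, each point a mouse, by region. The mPFC points of Bcas1 (r = 0.95) follow a line, and those of Pdgfra (r = 0.26) do not.

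OPC genes did not follow each other as closely. The 6 pairs among them had a median r of -0.04 for mPFC, -0.24 for BNST and 0.34 for vHPC, against 0.20, 0.56 and 0.39 for the 15 pairs of committed genes. Cspg4 in the mPFC had an r of 0.67 with 4 endothelial genes, 0.51 with 5 microglial genes and -0.23 with the other OPC members. Its level there may therefore not stand for OPCs alone. In the mPFC, Vcan and C1ql1 went together (r = 0.81), and both followed 5 neuroblast genes such as Dcx (Pearson r = 0.79 and 0.76, permutation adjusted p = 7.5e-05 and 0.00013, Spearman rho 0.79 and 0.75, each with permutation adjusted p = 7.5e-05). Without the 2 farthest mice r was 0.81 and 0.78, and within library sets it lay between 0.64 and 0.95 and between 0.57 and 0.89. They followed 5 astrocyte genes as closely (r = 0.84 and 0.82) and the other committed-stage genes too (0.82 and 0.79). The mPFC levels of Vcan and C1ql1 may therefore not stand for OPCs alone either. In the vHPC, Vcan had an r of 0.07 with Pdgfra, -0.25 with Cspg4 and 0.41 with C1ql1. In the BNST Vcan and C1ql1 went apart (r = -0.69), where D2 control replicate 2 held the highest Vcan (6.51 log2 CPM) and the lowest C1ql1 (1.92).

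Among 16042 genes in all 3 tables, those most like the mean of the committed genes by their mean r over regions included Plekhh1, Spg20 and Sept4 (0.78 each) and Kif13b (0.77). Those most like the OPC genes reached less, with Wscd1 at 0.67, Insc at 0.66, Sec14l5, Gpam and Lrig1 at 0.61 and Hapln2 at 0.60. These are descriptions over 32, 28 and 28 mice.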

How the data were processed

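RNA was depleted of rRNA, and libraries were made with ScriptSeq v2 (mPFC), Ovation (BNST) or Nextera (vHPC). After adapter trimming and removal of PCR duplicates, the authors mapped reads to GRCm38 (STAR) and counted exonic reads (HTSeq). The deposited BNST values are those read counts. The deposited mPFC and vHPC values are log2 CPM, for which the authors kept genes with 1 CPM or more in 6 or more libraries, applied voom and removed differences between library sets with ComBat (sequencing sets too for the vHPC). The groups given to ComBat are not given in the sources used here. Sets were taken from the paper's list of libraries.

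Here each region had 1 fit over all its libraries, with 1 mean for each strain and phenotype. BNST counts were filtered by the same rule, scaled by TMM and fitted with edgeR 4.0.16 (robust quasi-likelihood), with a prior count of 0.5 for log2 CPM. The log2 CPM tables were fitted with limma 3.58.1 (robust), in R 4.3.3. Tests were two-sided, with Benjamini-Hochberg adjustment over all genes of a region, and called means an adjusted p under 0.05. Alternatives used DESeq2 1.42.0, sva 3.50.0 (ComBat), covariates and sets of libraries. The fits were tested on simulated data. Relations and figures were made in Python 3.11.15 with NumPy 2.4.6, pandas 2.3.3 and matplotlib 3.10.9. Symbols and positions came from GENCODE M21.

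The members, gene lists and tests were chosen with earlier results of these data known. All 10 members are described, from each list at most 3 called genes with the largest log2 difference in a comparison are named, and the genes most like a stage were the 6 with the highest mean correlation. Some genes that these rules would name are not reported here. There were no libraries of resilient D2 mice from the mPFC or vHPC.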

Additional observations from a re-analysis of the deposited data

Results flagged for a closer look

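Of 140 groups of 4 to 10 mice, 5 held a mouse far from the others of its group by Dixon's test, which chance alone does for about 1 group in 20. In the mPFC, Pdgfra was 6.47 log2 CPM in B6 control replicate 6, against 6.60 to 6.66 in the other 5 controls. This is the C7 control, whose Enpp6 (3.38) and Bcas1 (6.66) were also low. In the BNST, Pdgfra was 5.48 in B6 susceptible replicate 3, against 5.65 to 5.72 in the other 4, Cspg4 was 3.4 in D2 control replicate 2, against 5.07 to 5.54, and Enpp6 was 3.2 in D2 control replicate 1, against 4.84 to 5.45. The first 2 of these BNST values come from the libraries that stood apart from the mean library. In the vHPC, C1ql1 was 2.77 in B6 resilient replicate 2, against 2.91 to 3.00 in the other 7.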

How the results depend on the processing

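Read counts per gene were at hand for the BNST alone, and the tests of 3 susceptible B6 mice in the vHPC rest on few mice. No paired analysis was possible because within a region no mouse is in more than 1 group and replicate numbers only name mice. Settings without C7 mice, with marker or mitochondrial covariates, without choroid-rich libraries, without the 2 libraries that stood apart and with sequencing set 1 alone were chosen after seeing the data. The cause of each change below was not tested. In mPFC B6 mice the number of members called (2 against controls and 2 against resilient mice) was 0 with the library set or the mouse ID prefix as a covariate, with only the groups compared, without C7 mice and with olfactory and striatal levels as covariates, and ranged from 0 to 3 in both when 1 mouse was left out. In the BNST it was 1 for susceptible against resilient B6 mice without the 2 libraries and 1 for the interaction by DESeq2 or without the 2 libraries. In the vHPC the number for resilient B6 mice (1) was 2 with quantile normalization, 0 with the library set or sequencing set as a covariate, with only the groups compared or with sequencing set 1 alone, and 0 to 2 without 1 mouse. For susceptible B6 mice (2) and control strains (8) it was 0 with the library set as a covariate. For susceptible D2 mice (1) it was 0 with either set as a covariate, with only the groups compared and with sequencing set 1 alone, and 0 to 1 without 1 mouse. For susceptible against resilient B6 mice (1) it was 0 with the library set as a covariate, with only the groups compared and with sequencing set 1 alone, 2 with the sequencing set as a covariate, 3 without choroid-rich libraries, and 0 to 2 without 1 mouse. The gap between stages moved in the BNST with the mitochondrial share as a covariate, to -0.39 for susceptible D2 mice (-0.06) and -0.83 for the interaction (-0.25). In the vHPC it moved with sequencing set 1 alone, which held 1 resilient B6 and 1 susceptible D2 mouse, to 0.39 for resilient B6 mice (0.06), 0.28 for susceptible D2 mice (0.08), -0.45 for susceptible against resilient B6 mice (-0.09) and 0.33 for the interaction (0.12), and with the library set as a covariate to 0.30 for susceptible D2 mice and 0.44 for the interaction. The vHPC strain differences of Pdgfra (-0.13) and Gpr17 (0.37) changed sign with that covariate, to 0.01 and -0.11, where control strains were compared only through other groups. Over all planned settings, those above included, 100 of 119 counts of members called and 58 of 60 gaps were kept. A gap was taken as kept when it moved by less than the spread within groups. A gap smaller than that spread could vanish or change sign and still be kept, so the 58 say little about small gaps. A count could also be kept after a small change. With quantile normalization C1ql1 was lost between vHPC control strains (-0.07, limma adjusted p = 0.342), and that count was kept. Over all genes, calls for mPFC susceptible B6 mice (420 against controls, 383 against resilient mice) fell to 0 without C7 mice. In the BNST, susceptible against resilient B6 mice (1) gave 1266 and susceptible B6 mice (0) gave 467 without the 2 libraries, susceptible D2 mice (0) gave 12 by DESeq2, control strains (439) gave 221 with only the groups compared, and the interaction (0) gave 1416 without TMM. In the vHPC the library set as a covariate took the counts from 2120, 7949, 837, 5404 and 11603 to 41, 202, 3, 0 and 1643 for resilient B6, susceptible B6, susceptible D2, susceptible against resilient B6 and control strains.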
